A study of Mus musculus with 2 samples.

Results

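Oxidative phosphorylation genes of the nuclear genome were taken as the protein-coding genes whose symbols start with Nduf, Uqcr, Atp5, or Cox followed by a digit from 4 to 8, together with Sdha, Sdhb, Sdhc and Sdhd. These were 93 of the 43346 genes in both deposited gene tables, and 93 of the 21474 protein-coding ones. By complex, 44 belonged to complex I, 4 to complex II, 8 to complex III, 20 to complex IV and 17 to complex V. Ndufa4 and its relative Ndufa4l2 were counted with complex IV, where the protein is now placed. Poly(A)-selected RNA above 200 nt, depleted of ribosomal RNA, came from small intestine tissue of C57BL/6J mice, an inbred strain, as adults of 8 weeks, pooled from littermates of both sexes. The data are 2 libraries of this single group, numbered as biological replicates 1 and 2 by the labels, so no condition was compared and no test was made. The labels used here name neither the intestinal segment nor the number of animals in a pool. Pairs of values are for replicate 1 and replicate 2.

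Oxidative phosphorylation is carried out in the inner mitochondrial membrane, where complexes I to IV pass electrons to oxygen while I, III and IV pump protons, and complex V, the ATP synthase, uses the returning protons to make ATP. Most subunits are encoded in the nucleus and imported, while a few core subunits are encoded by mitochondrial DNA. The absorptive epithelium of the intestine is rich in mitochondria and spends much ATP on ion and nutrient transport. Several complex IV subunits come as a general isoform and a second isoform known from muscle, testis or lung.

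Replicate 1 held 45472946 and replicate 2 held 45822403 expected counts, that is, estimated fragments per gene. Where a gene had 0 counts, its share could be up to 6.60e-06% (replicate 1) or 6.55e-06% (replicate 2) of all counts, a limit of 3 counts that covers counting error only. The libraries stood apart in the tissue they held. All 16 exocrine pancreas markers were detected in both, but they summed to 27.4% of all TPM (transcript abundance scaled to a fixed total per library) in replicate 1 against 0.179% in replicate 2. The 10 stomach markers summed to 1.98% against 0.00515%. Of these, 6 were detected in both, and Atp4a and Atp4b were under 1 TPM in both. Tff2 and Tff1 led the stomach sum of replicate 1, at 8479 and 5130 TPM. All 12 enterocyte markers, which define the labelled tissue, were present in both, at 1.01% and 2.54% of TPM. TPM sum to the same total in each library, and the median gene had a log2 ratio of replicate 1 over replicate 2 of -0.66, so differences between the libraries are given relative to it.

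A RefSeq window around the transcription start, running from 250 bases before it to 50 after, was given for 76 members in 81 windows (GRCm38.p6). The letters of factors known to serve respiratory genes were found in more member windows than in the 21262 windows of protein-coding genes, on either strand. The NRF1 letters GCGCATGC stood in 14.8% of member windows and 3.51% of protein-coding ones, the GABP and ETS letters CCGGAAG in 22.2% and 11.6%, and the YY1 letters AAGATGGC in 13.6% and 3.05%. At least 1 of these 3 stood in 34 of the 81 member windows (42.0%), against 16.7% of the protein-coding ones. Over the whole window, the letters of general promoter elements were about as frequent in both. GGGCGG (Sp1) stood in 44.4% and 46.2%, CCAAT in 43.2% and 38.2%, and TATAAA in 9.88% and 12.6%. Within the 100 bases nearest the start, GGGCGG stood in 22.2% and 29.0%, CCAAT in 12.3% and 13.6%, and TATAAA in 1.23% and 4.96%. The estrogen-related receptor letters TCAAGGTCA stood in 2 member windows, those of Atp5g3 and Sdhd (2.47%), against 0.334% of protein-coding windows, and in 0 member windows on the given strand. On the given strand alone, the GABP/ETS letters stood in 8.64% of member and 6.30% of protein-coding windows, and the YY1 letters in 12.3% and 2.00%. Most YY1 matches of members lay after the start site, from position 11 in Ndufaf8 to 39 in Ndufb8, and not upstream of it. A match of letters is a description and not evidence of binding.

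**Figure D1:**
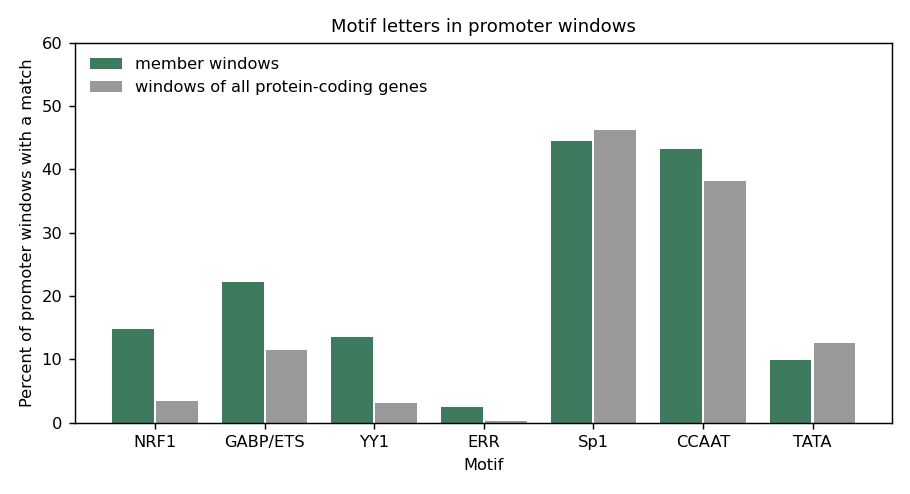
Percent of promoter windows (y axis) that hold each motif's letters on either strand, for member windows (n = 81, green) and windows of all protein-coding genes (n = 21262, grey). The member bars are the taller for NRF1 (14.8% against 3.51%), GABP/ETS (22.2% against 11.6%) and YY1 (13.6% against 3.05%), and nearly level for Sp1.

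The windows of 4 highly expressed members and of 3 genes of the isoform families are shown. In the levels described below, general subunits are highest. The muscle isoform has a large share of TPM for subunit 7a and almost none for subunit 8. Cox6a1 (chr5:115348909-115349208, minus strand), Cox8a (chr19:7217567-7217866, minus strand) and Uqcr11 (chr10:80406772-80407071, minus strand) are general subunits whose windows hold marked letters, and Atp5b (chr10:128083057-128083356, plus strand) is one whose window holds none. Cox7a2 (chr9:79759804-79760103, minus strand) is the general and Cox7a1 (chr7:30183921-30184220, plus strand) the muscle isoform of subunit 7a, and Cox8b (chr7:140900397-140900696, minus strand) is the muscle isoform of subunit 8. All are in GRCm38.p6, and capitals mark the NRF1, GABP/ETS, YY1 and TATA letters named above on either strand.
Cox6a1: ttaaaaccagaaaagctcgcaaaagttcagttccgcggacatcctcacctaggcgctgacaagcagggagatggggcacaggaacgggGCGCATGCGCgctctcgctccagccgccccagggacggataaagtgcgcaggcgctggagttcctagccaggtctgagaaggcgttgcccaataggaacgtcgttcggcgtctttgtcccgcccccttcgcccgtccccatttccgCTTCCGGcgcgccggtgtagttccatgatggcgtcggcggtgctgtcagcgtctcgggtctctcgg
Cox8a: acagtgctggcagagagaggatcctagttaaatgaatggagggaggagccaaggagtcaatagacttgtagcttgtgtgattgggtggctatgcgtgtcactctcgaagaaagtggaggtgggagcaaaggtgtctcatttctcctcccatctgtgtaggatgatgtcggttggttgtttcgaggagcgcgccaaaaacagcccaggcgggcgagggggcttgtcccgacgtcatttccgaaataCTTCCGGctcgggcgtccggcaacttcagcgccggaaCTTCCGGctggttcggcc
Uqcr11: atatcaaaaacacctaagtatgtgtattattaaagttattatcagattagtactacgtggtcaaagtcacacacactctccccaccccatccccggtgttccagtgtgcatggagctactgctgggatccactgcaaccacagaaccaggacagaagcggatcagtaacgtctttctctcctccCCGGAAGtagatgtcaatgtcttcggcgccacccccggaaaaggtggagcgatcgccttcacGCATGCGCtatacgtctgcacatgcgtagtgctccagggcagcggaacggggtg
Atp5b: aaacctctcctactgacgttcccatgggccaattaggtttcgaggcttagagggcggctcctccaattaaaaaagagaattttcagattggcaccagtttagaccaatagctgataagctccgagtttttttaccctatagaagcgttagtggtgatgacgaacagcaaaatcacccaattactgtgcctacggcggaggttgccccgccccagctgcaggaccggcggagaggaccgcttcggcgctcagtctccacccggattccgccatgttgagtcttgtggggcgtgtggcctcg
Cox7a2: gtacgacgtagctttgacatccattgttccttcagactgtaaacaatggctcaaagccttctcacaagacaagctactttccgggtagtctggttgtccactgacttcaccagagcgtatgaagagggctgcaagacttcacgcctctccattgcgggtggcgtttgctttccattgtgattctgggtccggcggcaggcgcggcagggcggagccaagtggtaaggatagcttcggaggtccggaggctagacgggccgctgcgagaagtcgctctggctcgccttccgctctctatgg
Cox7a1: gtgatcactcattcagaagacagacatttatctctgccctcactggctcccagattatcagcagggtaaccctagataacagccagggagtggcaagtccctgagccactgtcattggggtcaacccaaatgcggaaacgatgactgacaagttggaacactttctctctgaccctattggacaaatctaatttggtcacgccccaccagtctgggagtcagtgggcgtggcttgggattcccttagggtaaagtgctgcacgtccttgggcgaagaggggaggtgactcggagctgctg
Cox8b: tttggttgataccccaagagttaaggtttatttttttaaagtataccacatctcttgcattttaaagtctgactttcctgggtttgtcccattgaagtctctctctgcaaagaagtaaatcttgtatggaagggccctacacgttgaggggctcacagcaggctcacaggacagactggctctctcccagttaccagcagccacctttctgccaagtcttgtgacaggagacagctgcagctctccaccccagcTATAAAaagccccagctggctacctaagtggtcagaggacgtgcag
Counted from the start site, the Cox6a1 window holds the NRF1 letters at position -162 and, overlapping on the other strand, at -160, and the GABP/ETS letters at -16. Cox8a holds the GABP/ETS letters at -5 and 33, and Uqcr11 holds them at -66 with the NRF1 letters at -4. The Cox7a2, Cox7a1 and Atp5b windows hold none of the marked letters, nor do those of the abundant Atp5d and Cox5b, and the Cox8b window holds TATAAA alone, at position 5. Of the 8 tissue-restricted isoforms of complex IV, 4 had a window (Cox7a1, Cox6b2, Cox8b and Cox7b2), and none of these held the NRF1, GABP/ETS or YY1 letters. At least 1 of these stood in 42.0% of member and 16.7% of protein-coding windows. With 4 windows, nothing about the tissue-restricted isoforms is read from this.

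Most members were expressed in both libraries, many of them strongly. A TPM of at least 1 in both was reached by 82 of the 93 (88.2%), against 49.3% of all protein-coding genes. At least 10 TPM in both was reached by 76 members, 100 TPM by 38 and 1000 TPM by 7. Those 7 were Cox6a1, Cox8a, Cox5a, Atp5b, Atp5d, Atp5a1 and Uqcr11. On coding transcripts alone, Atp5b and Atp5a1 were below 1000 TPM in both libraries. In all, the members took 3.0% of replicate 1's TPM and 4.32% of replicate 2's, with a mean of 3.66% ± 0.93 (SD, n = 2). As a share of counts, which are not divided by length, they took 1.637% in replicate 1 (95% Wilson interval 1.633% to 1.641%) and 1.963% in replicate 2 (1.959% to 1.967%). With the pancreas and stomach markers taken out of the total, the shares of TPM were 4.24% and 4.33%. Only the total was changed, so any member RNA from pancreas or stomach cells stayed in the sum. In bulk tissue, fewer cells of a type and less RNA per cell cannot be told apart.

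**Figure D2:**
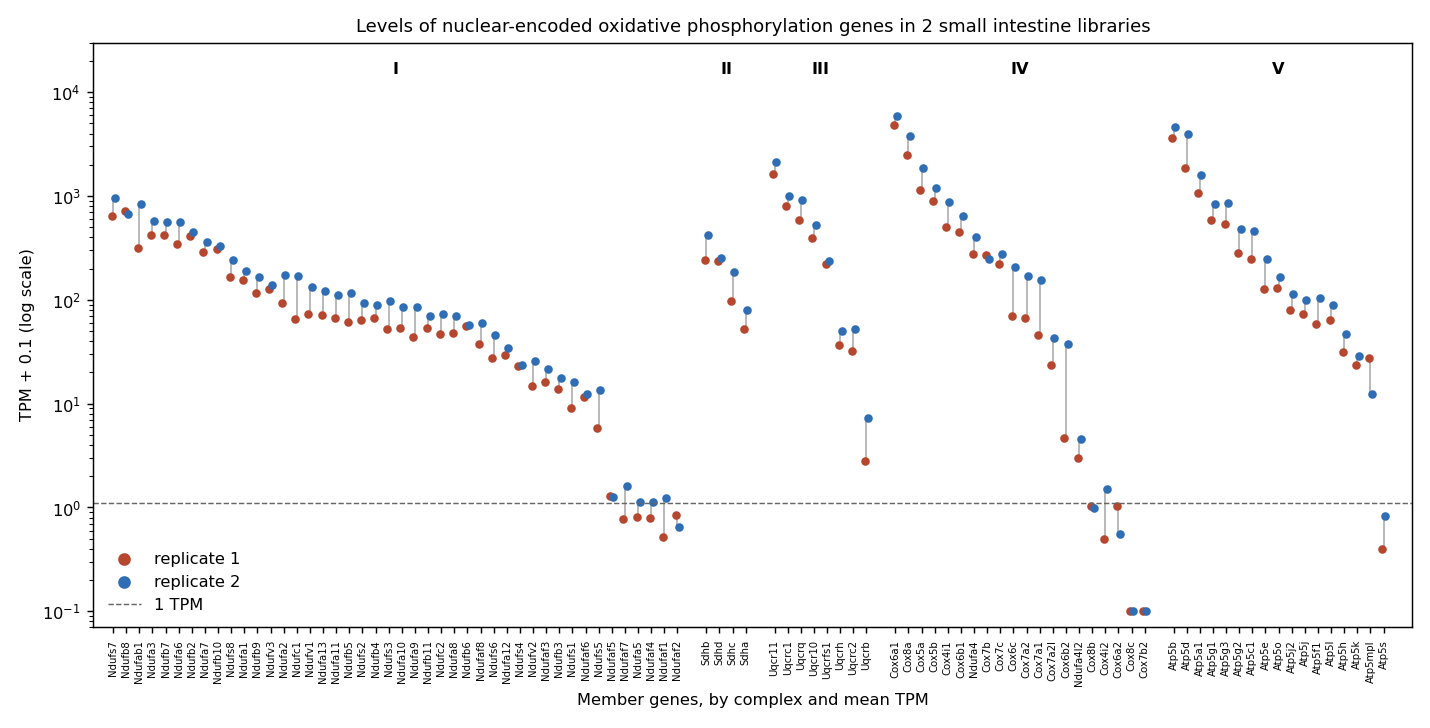
TPM of each of the 93 members in replicate 1 (red) and replicate 2 (blue) on a log scale, 0.1 added, by complex (I to V) and mean level, with a dashed line at 1 TPM. Levels within complexes I, III, IV and V span more than 100-fold, from Cox6a1 at 4827 and 5890 TPM to genes at 0.

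The 5 most abundant members, Cox6a1, Atp5b, Cox8a, Atp5d and Uqcr11, alone made up 48.1% of the summed member TPM in replicate 1 and 47.1% in replicate 2. Members of a complex were far from equal in RNA level. Among detected members the highest was 598-fold over the lowest in complex I in replicate 1 and 831-fold in replicate 2, 612-fold and 298-fold in complex III, 1664-fold and 1306-fold in complex IV, and 156-fold and 370-fold in complex V. In complex II it was 4.67-fold and 5.33-fold. The SD of log2(TPM + 1) over the 82 detected members was 2.32 and 2.29, beside 1.91 and 2.02 over all 10597 detected protein-coding genes. The order of members was much the same in both libraries, with a Pearson correlation of r = 0.988 and a rank correlation (Spearman) of rho = 0.986 across the 93 genes, which share each library and are not independent.

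Complex I, the NADH dehydrogenase, summed to 0.554% of TPM in replicate 1 and 0.786% in replicate 2. All 7 core subunit genes were detected, and 28 of 29 accessory ones. Ndufs7, a core subunit with an iron-sulphur cluster close to the quinone site, had the highest mean, with 642 and 964 TPM. The accessory Ndufb8 of the membrane arm had 718 and 664 TPM. Ndufab1, the mitochondrial acyl carrier protein, which is also part of complex I, had 318 and 845 TPM. The core subunits spread widely, since Ndufs1, the largest subunit and the carrier of several iron-sulphur clusters, was listed at 8.97 and 16.2 TPM. Ndufv2, a partner of the flavin-bearing Ndufv1, stood at 14.9 and 25.7 TPM, whereas Ndufv1 itself had 72.6 and 133 TPM. In both libraries Ndufs7 was the highest and Ndufs1 the lowest of the 7 core subunit genes.

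The lowest structural subunit of complex I was Ndufa5, an accessory subunit of the matrix arm, at 0.71 and 1.04 TPM from 23 and 24 counts. Ndufs5, an accessory subunit on the intermembrane side, followed at 5.70 and 13.5 TPM. Assembly factors, which help to build complex I and leave it, were lower than its subunits as a group. Of the 8 named Ndufaf, 4 were detected. Ndufaf8 had 37.7 and 60.2 TPM, Ndufaf3 15.9 and 21.5, Ndufaf6 11.4 and 12.4, and Ndufaf5 1.2 and 1.16. Ndufaf7 had 0.68 and 1.5 TPM, Ndufaf4 0.69 and 1.03, Ndufaf1 0.42 and 1.13, and Ndufaf2 0.75 and 0.55. The median structural subunit lay 5.09 log2 units above the median assembly factor in replicate 1 and 5.62 in replicate 2 (5.35 ± 0.37, SD, n = 2). Among genes of at least 1 TPM in both libraries, which leaves 4 of the 8 factors, the difference was 2.48.

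Complex II, succinate dehydrogenase, is the one complex encoded wholly in the nucleus and also an enzyme of the TCA cycle. Its 4 genes were the most even set. Sdhb, the iron-sulphur subunit, had 244 and 422 TPM, and Sdhd, a membrane anchor, 235 and 253 TPM. The other anchor gene, Sdhc, had 96.4 and 184 TPM, and Sdha, the flavoprotein that oxidises succinate, was lowest at 52.2 and 79.1 TPM. The ranges of Sdhb and Sdhd overlapped, while Sdhc lay below both of them and Sdha below Sdhc in each library.

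In complex III, the cytochrome bc1 complex, Uqcr11, a small accessory subunit, stood highest. It had 1645 and 2120 TPM, Uqcrc1, a large subunit facing the matrix, 795 and 996 TPM, and Uqcrq, which lies beside cytochrome b, 584 and 918 TPM. Uqcrfs1, the Rieske iron-sulphur protein and the core subunit among these members, had 221 and 239 TPM. The paired large subunits were unequal, with Uqcrc2 at 32.3 and 52.2 TPM, far below Uqcrc1. Uqcrb, another small accessory subunit, was lowest at 2.69 and 7.12 TPM, from 41 and 89 counts.

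Complex IV, cytochrome c oxidase, had the highest sum by TPM, 1.13% in replicate 1 and 1.58% in replicate 2. By counts complex V was higher, at 0.541% and 0.740%, against 0.477% and 0.536% for complex IV. All 11 genes of its general accessory subunits were detected. Cox6a1 was the highest member of all, at 4827 and 5890 TPM (5358 ± 752, SD, n = 2), and ranked at 18 and 10 among protein-coding genes (ENSMUSG00000041697.8, chr5:115345642-115348981, minus strand). Cox8a, the smallest of these subunits, had 2460 and 3803 TPM, and Cox5a 1143 and 1856 TPM. At the other end, Cox6c had 70.4 and 208 TPM, and Cox7a2 66.1 and 170 TPM. Cox7a2l, known for joining complexes III and IV into supercomplexes and shortened by an allele in C57BL/6 mice, had 23.5 and 43.2 TPM.

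In 6 of 8 isoform families 1 gene held at least 90% of the family's TPM in both libraries. Cox4i1 held 99.9% and 99.8% against the lung and hypoxia isoform Cox4i2 (0.40 and 1.40 TPM). Cox6a1 held 99.98% and 99.99% against the muscle isoform Cox6a2, which was listed at 0.93 and 0.46 TPM. Cox8a held 99.96% and 99.98% against Cox8b, also a muscle isoform, at 0.93 and 0.88 TPM. The testis isoform genes Cox7b2 and Cox8c had 0 counts in both libraries and were not detectable at this depth. Ndufa4 held 99.0% and 98.9% against Ndufa4l2, known as a hypoxia-induced relative, at 2.90 and 4.51 TPM.

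The minor isoforms of Cox6b and Cox7a were listed at higher levels. Cox6b2 (ENSMUSG00000051811.10, chr7:4751792-4753094, minus strand), known from testis, was listed at 4.54 TPM from 56 counts in replicate 1 and 37.4 TPM from 391 counts in replicate 2, so Cox6b1 held 99.0% and 94.5%. Male germ cell markers were at or near 0, with 5 of 5 under 1 TPM in both libraries and a summed level of 0.02 and 0.23 TPM, while Tnp1, Prm1 and Pgk2 were at 0. Cox7a1 (ENSMUSG00000074218.2, chr7:30184144-30186078, plus strand), known as the heart and skeletal muscle isoform, had 45.9 and 155 TPM beside 66.1 and 170 TPM of Cox7a2, and so 41.0% and 47.6% of the family. The share depended on the unit. By counts Cox7a1 took 14.7% and 19.9% (300 and 892 counts, against 1743 and 3589 for Cox7a2). TPM divides by effective length, which was 128 and 147 nt for Cox7a1, whose annotated length is 364 nt. Skeletal and cardiac muscle markers summed to 28.0 and 27.8 TPM, with 6 of 8 under 1 TPM in both libraries, and Mb and Myh2 at 0. Nearly all of that sum came from Ckm, at 24.3 and 17.9 TPM, and Acta1, at 3.25 and 8.75 TPM. The 8 smooth muscle markers summed to 1359 and 1218 TPM. Their part in the Cox7a1 level was not tested.

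**Figure D3:**
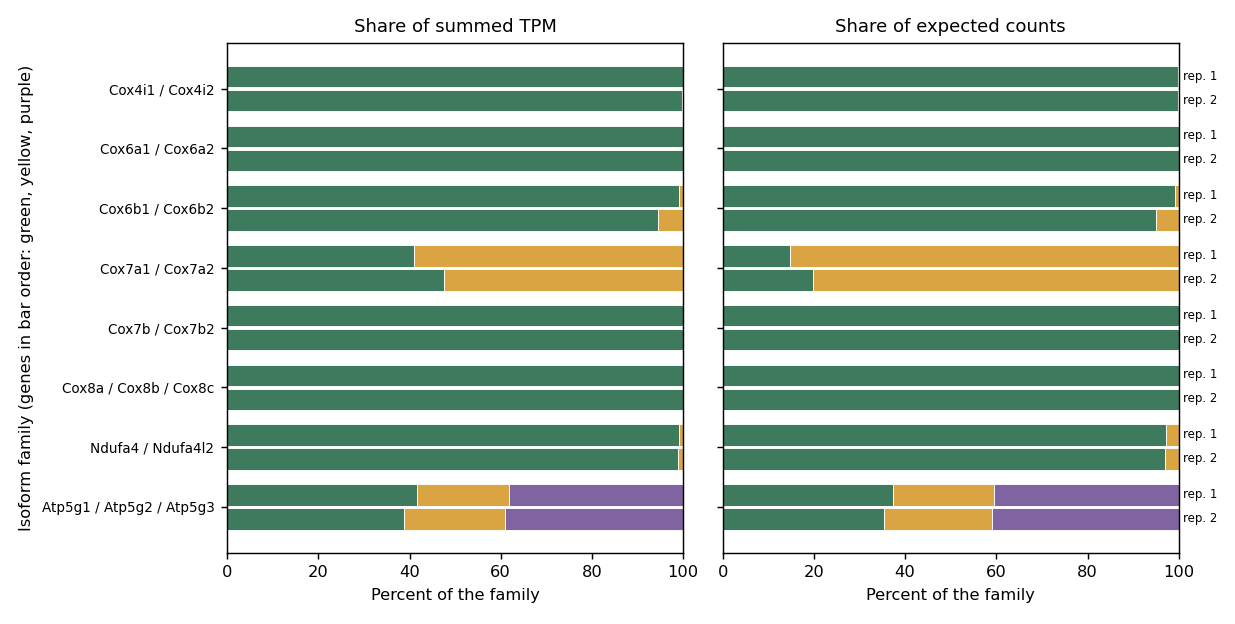
Share of each isoform family taken by each gene, as summed TPM (left) and expected counts (right), with the replicate 1 bar above that of replicate 2. A single gene fills nearly all of the bar in 6 families, the Atp5g genes share theirs, and Cox7a1 takes 41.0% and 47.6% of TPM but 14.7% and 19.9% of counts.

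Complex V summed to 0.883% and 1.37% of TPM, most of it from the F1 head and stalk. Atp5b, the catalytic beta subunit (ENSMUSG00000025393.8, chr10:128083273-128090391, plus strand), had 3628 and 4589 TPM, Atp5d, the delta subunit of the central stalk, 1851 and 3933 TPM, and Atp5a1, the alpha subunit, 1080 and 1606 TPM. These were followed by Atp5c1, the gamma subunit, at 248 and 458 TPM and Atp5e, the epsilon subunit, at 126 and 249 TPM. The c-ring, the rotor in the membrane, has the same mature protein from 3 genes, and all 3 were used. Atp5g1 gave 41.7% and 38.7% of their TPM, Atp5g3 38.2% and 39.1%, and Atp5g2 20.1% and 22.2%. The order of Atp5g1 and Atp5g3 thus differed between the libraries, and Atp5g2 was below both in each.

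Peripheral stalk and membrane genes of complex V were lower. The 4 stalk genes ranged from Atp5h at 31.1 and 46.3 TPM to Atp5o at 130 and 165 TPM. Atp5l and Atp5j2, both of the membrane part, had 63.6 and 89.4 TPM and 79.5 and 113 TPM, and Atp5k had 23.3 and 28.9 TPM. Atp5mpl, a very small subunit, had 27.2 TPM from 179 counts in replicate 1 and 12.4 TPM from 72 counts in replicate 2. Atp5s, coupling factor B, was under 1 TPM in both, at 0.30 and 0.72.

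For some of the most abundant members the deposited transcript estimates placed little of the level on coding transcripts. Over all members, the leading transcript, the one with the highest mean share of its gene's TPM, took at least 90% in both libraries in 60 genes and 100% in 30. By TPM the leading transcript was not annotated as protein-coding in 7 genes, but by counts in 4, which were Ndufb10, Ndufaf4, Ndufaf6 and Atp5k. In Atp5k, a membrane subunit of complex V, the retained-intron Atp5k-203 held 53.3% and 57.8% of counts but less TPM than the coding form. Atp5b-207, a processed transcript of 343 nt, held 76.7% of Atp5b TPM in replicate 1 and 59.4% in replicate 2, and the coding transcripts of Atp5b held 427 and 582 TPM. By counts the coding Atp5b-201 had 36514 and 38944, more than Atp5b-207 with 15191 and 13482, and the short transcript's effective length was 107 and 126 nt. The retained-intron form Atp5b-205 had 18672 and 45252 counts, the highest of the gene in replicate 2. For Ndufb10, an accessory subunit of the membrane arm of complex I, the retained-intron transcript Ndufb10-202 held 91.7% and 90.2% of TPM and also 93.2% and 92.1% of counts, leaving coding transcripts with 24.4 and 28.7 of 308 and 330 TPM.

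Atp5a1-203, a retained-intron transcript, held 31.3% and 58.7% of its gene, Atp5a1-204, annotated for nonsense-mediated decay, 41.1% and 7.65%, and coding transcripts of Atp5a1 held 281 and 450 TPM. By counts the coding Atp5a1-201 led, with 30241 and 38058, against 9112 and 20324 for Atp5a1-203. Uneven shares between the libraries were also seen for Ndufab1-208, a retained-intron form at 46.9% and 61.0%, and for Ndufs1-210, another, at 50% and 67.9%. By counts coding forms led in both genes, Ndufab1-203 with 9780 and 15332 against 1576 and 4578 for Ndufab1-208, and Ndufs1-203 with 210 and 290 against 135 and 264 for Ndufs1-210. The processed transcripts Ndufaf6-206, at 85.0% and 76.2%, and Ndufaf4-202, at 84.8% and 67.1%, led 2 assembly factors. Coding forms also split among themselves. Ndufv1-201 held 35.3% and 43.8% of Ndufv1 beside the coding Ndufv1-207 with 37.9% and 28.4%, Cox6b2-206 28.1% and 42.5% of Cox6b2, and Atp5d-201 68.6% and 50% of Atp5d, where Atp5d-202, also coding, held 29.9% and 49.6%. In 2 further genes a coding transcript shared the TPM with a retained-intron form. Ndufa10-201 held 45.4% and 52.4% beside 51.8% and 45.3% of the retained-intron Ndufa10-206, and Uqcrc2-201 51.1% and 52.2% beside 47.6% and 47.5% of the retained-intron Uqcrc2-203. In Atp5j2 the coding Atp5j2-202 held 56.9% and 47.1%, and Atp5j2-204, annotated for nonsense-mediated decay, 17.2% and 38.7%. Counted on coding transcripts alone, the members summed to 2.52% of TPM in replicate 1 and 3.66% in replicate 2, and 8 members had under 50% of their TPM on coding transcripts in at least 1 library.

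**Figure D4:**
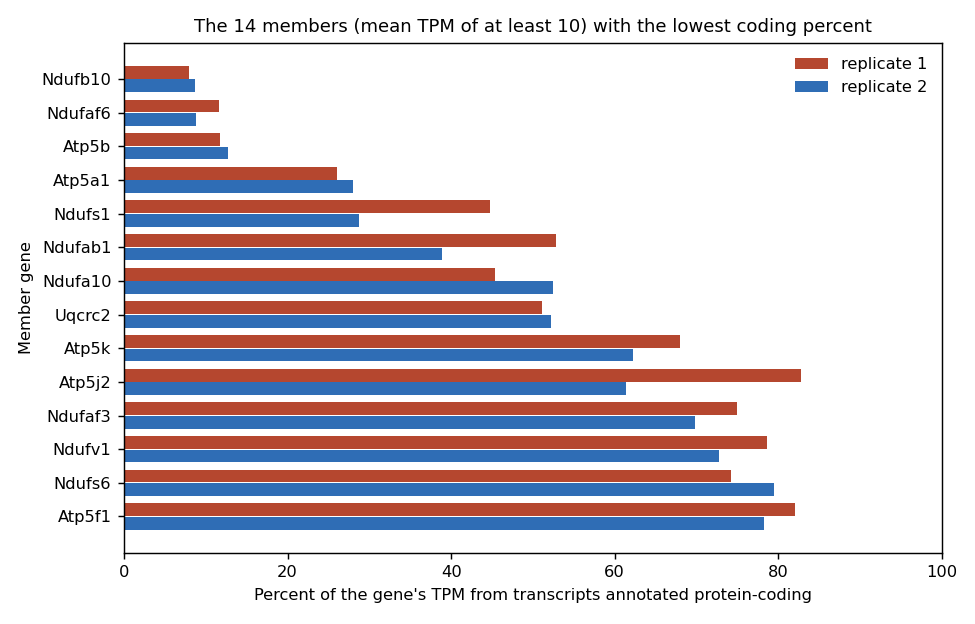
Percent of TPM from transcripts annotated as protein-coding (x axis) for the 14 members with the lowest percent among those with a mean TPM of at least 10, in replicate 1 (red) and replicate 2 (blue). Coding transcripts of Atp5b held 427 and 582 TPM, of 3628 and 4589 for the gene.

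Relative to the median gene, the members differed little between the libraries. As listed, 84 were lower in replicate 1, 7 higher and 2 equal. After centring, the log2 ratio of replicate 1 over replicate 2 had a median of 0.11 over the 83 members with a mean TPM of at least 1, with quartiles of -0.12 and 0.32, beside quartiles of -0.33 and 0.35 over all 12260 such genes. By complex the medians were 0.11 for I, -0.02 for II, 0.24 for III, 0.04 for IV and 0.12 for V. Of 78 members with a mean TPM of at least 10, 75 lay within 1 log2 unit. Past that 2-fold limit, 1 was higher in replicate 1, where the share of all 5926 such genes was 5.28%, and 2 were lower, where it was 7.83%.

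The member higher in replicate 1 was Atp5mpl, with a centred log2 ratio of 1.74. The lower ones were Cox6b2, at -2.13, and Cox7a1, at -1.06. All 3 have leading transcripts under 600 nt, and no member of at least 600 nt was past the limit. On counts scaled by edgeR's TMM factors the ratios were 1.24 for Atp5mpl, -1.79 for Cox6b2 and -1.05 for Cox7a1, and with 0.1 in place of 1 added to each TPM Cox7a1, at -0.97, was not past the limit. Among members with a mean TPM of at least 10, next on the higher side came Cox7b (0.81), Ndufb8 (0.78), Ndufb6 (0.62), Ndufs4 (0.62), Ndufb10 (0.56), Sdhd (0.56) and Ndufaf6 (0.55). Next on the lower side came Cox6c (-0.89), Ndufab1 (-0.74), Ndufc1 (-0.71), Cox7a2 (-0.68), Atp5d (-0.42) and Atp5e (-0.31). Both genes of subunit 7a, general and muscle, were thus lower in replicate 1. The enterocyte markers had a median centred ratio of -1.11, with 6 of 12 past 2-fold lower and 1, Alpi, past it higher in replicate 1. The smooth muscle markers had a median of 0.86, and the pancreas markers one of 9.56. The part of these cell types in the members' ratios was not tested.

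**Figure D5:**
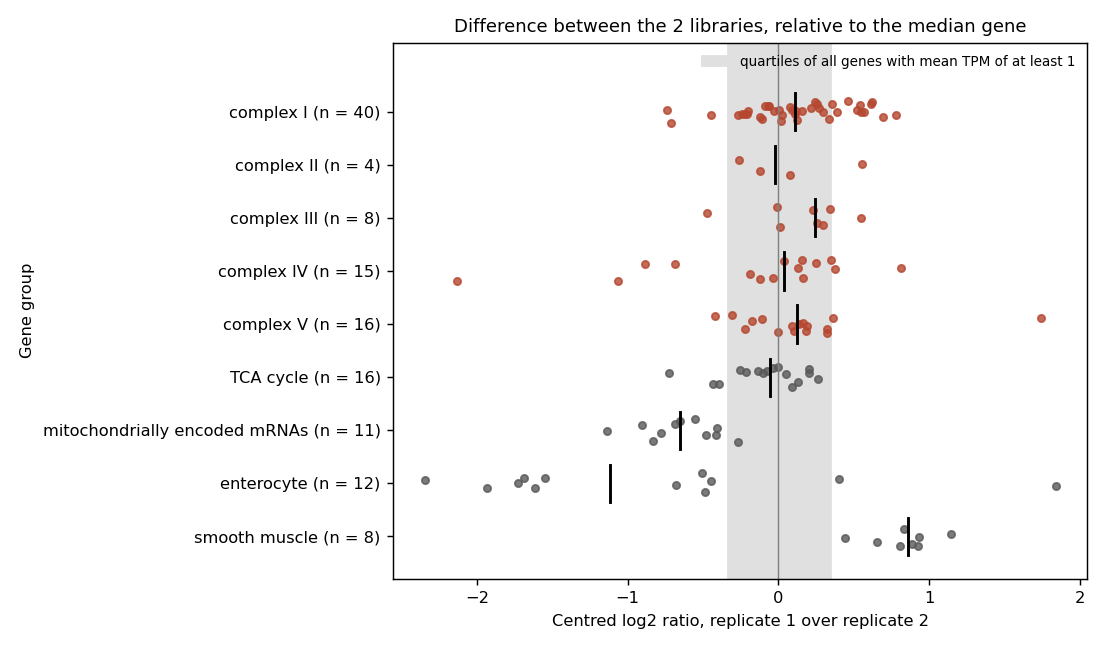
Centred log2 ratio of replicate 1 over replicate 2 (x axis) for members by complex (red) and other gene groups (grey), for genes with a mean TPM of at least 1, with black bars at the medians and a grey band at the quartiles of all such genes (-0.33 to 0.35). Members centre near 0, with Atp5mpl, Cox6b2 and Cox7a1 farthest out, and mt-Atp8 (-9.70) is left out of the plot and of its group's bar.

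The nuclear members were set beside the 13 mRNAs encoded by mitochondrial DNA, whose products they assemble with. Summed TPM of the members was 3.15 times that of the mitochondrial mRNAs in replicate 1 and 2.00 times in replicate 2, with a mean of 2.58 ± 0.81 (SD, n = 2). By counts it was 1.62 and 1.2 times. The expected counts of mt-Co2, mt-Atp6 and mt-Nd4l were not whole. Near copies of the mitochondrial mRNAs were not searched, so reads of theirs listed under other genes were not examined. The mitochondrial mRNAs were led by the complex IV subunits mt-Co1, at 4451 and 8513 TPM, and mt-Co3, at 3131 and 7296 TPM, followed by mean TPM by mt-Cytb of complex III, at 558 and 1232 TPM, and mt-Atp6 of complex V, at 569 and 1205 TPM. By TPM, Cox6a1 of the nuclear subunits stood above both mt-Co1 and mt-Co3 in replicate 1 and below both in replicate 2. Uqcr11 stood above mt-Cytb in both libraries by TPM. By counts Cox6a1, at 82382 and 82093, was below mt-Co1 and mt-Co3 in each library. The leading transcript of Uqcr11 had 17377 and 18805 counts, below mt-Cytb at 25774 and 44964. Mt-Atp8 was listed at 0 TPM from 28 counts in replicate 1 and 1321 TPM from 105 counts in replicate 2, where the mean fragment was 237 and 219 nt, and mt-Nd3 was at 0 counts in both. Without mt-Atp8 the ratios were 3.15 and 2.13. The mitochondrial mRNAs had a median centred ratio of -0.67 over 12 genes, outside the quartiles of all genes, whereas the members' median was 0.11.

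Other nuclear genes of the pathway were mostly lower per gene. Of 17 further electron transfer genes, 16 were detected, with Cyc1, the cytochrome c1 of complex III that the symbol rule leaves out, at 383 and 559 TPM, and Coq9, Coq4 and Coq2 of ubiquinone synthesis at 124 and 195, 67.1 and 78.2, and 57.5 and 70.8 TPM. Cycs, cytochrome c itself, was the one gene of that list under 1 TPM in both, at 0.33 and 0.84 TPM. Its expected counts, 37.5 and 72.9, were not whole. Near copies were searched for the members only, so reads of Cycs listed under other genes were not examined. Etfdh, which passes electrons from fatty acid oxidation to ubiquinone, was the one gene of the list past 2-fold by TPM. It had 10.3 and 61.7 TPM, with a centred ratio of -1.80. Its counts, 832 and 1475, lay much closer together, so the size of the difference depended on the unit. Of 40 further assembly factors of complexes I to V, 34 were detected, with medians of 9.35 and 15.9 TPM, against 66.3 and 115 TPM for the median member. Cox14 (241 and 326 TPM), Coa3 (138 and 387 TPM) and Sco2 (187 and 255 TPM), all of complex IV assembly, led with Uqcc2 of complex III (101 and 84.6 TPM). Under 1 TPM in both were Sdhaf3, Sdhaf4, Tmem126b, Nubpl, Lyrm7 and Pet117. These further assembly factors, some of which serve complex I, thus stood below the members in median level. The median member is taken over all members, the Ndufaf assembly factors included.

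The TCA cycle, which feeds electrons to complexes I and II, had all 16 genes detected, with Mdh2 the highest at 1305 and 1940 TPM, and among the others Cs at 170 and 448 TPM and Ogdh at 131 and 283 TPM. Its median centred ratio was -0.06, and none of the 14 with a mean TPM of at least 10 was past 2-fold. Mitochondrial ribosomal proteins, which make the mitochondrially encoded subunits, were detected in 73 of 77 cases with medians of 13.3 and 20.9 TPM. The median member stood above the medians of all these nuclear lists in both libraries.

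Regulators of respiratory genes were present at low to moderate levels. Esrra, the estrogen-related receptor alpha, had 159 and 345 TPM, and Esrrg 0.33 and 0.59 TPM. Nrf1, nuclear respiratory factor, had 10.1 and 17.8 TPM, Yy1 16.3 and 34.5 TPM, and the GABP subunit genes Gabpa, Gabpb1 and Gabpb2 1.5 and 4.05, 2.63 and 4.06, and 2.31 and 6.09 TPM. The coactivator Ppargc1a had 3.25 and 13.6 TPM, its relatives Ppargc1b 5.90 and 4.67 TPM and Pprc1 8.08 and 8.65 TPM. The genes of mitochondrial transcription were Polrmt, the polymerase, at 30.8 and 40.3 TPM, Tfam at 1.87 and 3.86 TPM, Tfb2m at 1.71 and 2.19 TPM and Tfb1m at 0.14 and 0.23 TPM, and Hif1a, the hypoxia factor, had 9.46 and 19.9 TPM. Tfb1m and Esrrg were the 2 of 15 regulators under 1 TPM in both libraries. Relative to the median gene, Ppargc1a lay lowest in replicate 1 of all regulators (-1.12) and Ppargc1b highest (0.95), both with a mean TPM under 10.

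Members are short, and the most abundant ones had the higher median GC content. The leading transcript had a median length of 727 nt, against 2198 nt over detected protein-coding genes, and 38.7% of members against 6.81% of those genes were under 600 nt. Across the 82 detected members GC content of the leading transcript and log2(TPM + 1) had Pearson's r = 0.41 and Spearman's rho = 0.37. Over 10511 detected protein-coding genes r was 0.29 and rho 0.32, also positive. The 10 most abundant members had a median GC content of 58.7% (49.0% to 64.7%), and the 10 least abundant detected ones 46.1% (40.9% to 61.1%). The ranges thus overlapped, and some leading transcripts are not coding. The 64.7% belongs to the processed transcript Atp5b-207, whereas the coding Atp5b-201 has 51.6%. Genes within a library share its depth and base composition effects, so these are descriptions.

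Reads of some members may be shared with near copies. At 95% identity over at least 100 nt on the same strand, 23 members other than Ndufaf7 matched 40 other genes, 37 of them pseudogenes, and in 8 members a copy had at least 1 TPM in both libraries. Of these copies, 2 were listed above the member itself by TPM. Ndufb4c, annotated as a processed pseudogene and identical to Ndufb4 over 390 nt, had 126 and 250 TPM, beside 66.3 and 89.2 TPM of Ndufb4, an accessory subunit of complex I. Gm15920, a copy of the complex I subunit gene Ndufa12 at 99.5% identity, had 36.1 and 78.2 TPM, beside 29.3 and 34.0 TPM. The order depended on the unit. By counts Ndufb4c, at 991 and 1700, lay below Ndufb4, at 2479 and 2642. Gm15920 had 305 and 568 counts, beside 477 and 411 for the leading transcript of Ndufa12. How reads divide between such copies is uncertain. The expected counts of 14 members were not whole to within 0.005, and these included Cox5b, Atp5g1 and Ndufab1. Exons of 25 members overlap a gene on the other strand, among them Atp5j, which overlaps the regulator gene Gabpa over 397 nt, and exons of 2 members overlap one on the same strand, Ndufb8 with Gm20538 and Atp5g2 with Mir688. The libraries are stranded, but whether counting used the strand is not given in the sources used here.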

How the data were processed

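Gene and transcript tables of 2 small intestine libraries (stranded, paired reads of 76 nt, with spike-ins, per the labels) were used as deposited. They hold expected counts, TPM, FPKM and each transcript's percent of its gene's TPM, deposited by the authors under column names that RSEM writes. The deposited text names mm10 and annotation M4. The sources used here give no aligner or quantifier. The authors' TPM divide by effective length, which weighs on short genes.

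Symbols, classes and gene coordinates (GRCm38) came from GENCODE M21, which matched 42462 of 43346 gene IDs (98.0%). The text and lists of an earlier account of these data were known when the members, lists and naming rule were chosen. Named are the 3 highest members of each complex, isoform families, members under 1 TPM in both libraries, the 8 highest and 8 lowest ratios and the 6 lowest leading transcript shares (both among members with a mean TPM of at least 10), the 4 highest genes of other lists (1 of them is not reported here) and all regulators. Other named genes, such as Ndufv2, Ndufb4, Ndufa12 and Etfdh, were chosen after their values were seen.

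Replicate difference was log2((TPM + 1)/(TPM + 1)), replicate 1 over replicate 2, minus the median over genes with a mean TPM of at least 1. With 1 group of 2 libraries no test was made, and the SD may hold technical as well as biological spread. Expected counts were rounded to whole numbers for edgeR 4.0.16 TMM factors and DESeq2 1.42.0 size factors (R 4.3.3), used only for scaling. Intervals are Wilson 95% and, like the limit of 3 counts, cover counting error only, since reads carry no molecular identifiers. Near copies were found with BLAST+ 2.17.0, and promoter windows are RefSeq's. Other steps used Python 3.11.15 with numpy 2.4.6, pandas 2.3.3, scipy 1.17.1 and matplotlib 3.10.9. The centred ratio with its 2-fold limit was tested on simulated counts, and the motif search on planted letters. The other calculations were not tested in this way. Alternatives were other scalings, thresholds, units and length limits and each library alone.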

Additional observations from a re-analysis of the deposited data

Results flagged for a closer look

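Genes outside the members whose symbols follow the same naming also carried counts above the limit of 3 that a count of 0 allows. Ndufb4c had 991 expected counts in replicate 1 and 1700 in replicate 2. Ndufab1-ps had 5.05 and 9.17 expected counts. Ndufa11b had 4 and 5 expected counts.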

How the results depend on the processing

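Each library alone gave 82 to 87 detected members, 3.0% to 4.32% of TPM, a structural minus assembly difference of 5.09 to 5.62, a nuclear over mitochondrial ratio of 2.00 to 3.15 and 62 to 64 members with a leading transcript of at least 90%. The mean share of 3.66% was 1.80% by expected counts and 2.17% over members of at least 600 nt. The median member ratio of 0.11 turned negative without centring, at -0.073 with TPM rescaled without the pancreas and stomach lists and at -0.26 with TPM scaled to the spike-ins. The 3 members past 2-fold became 11 at 1.5-fold, 0 among members of at least 600 nt and 8 without centring. The structural minus assembly difference of 5.35 was 6.14 with a pseudocount of 0.1 and 2.48 among members of at least 1 TPM in both. The nuclear over mitochondrial ratio of 2.58 was 1.41 by expected counts and 1.56 at 600 nt or more. NRF1 letters stood in 8.64% of member windows on the given strand alone, against 2.47% of protein-coding windows, and in 8.64% against 1.75% within the 100 bases nearest the start. For GABP/ETS the given strand gave 8.64% against 6.30%. The causes were not tested. Of 115 alternative values, 87 stayed within the spread used, 26 moved and 2 reversed. Where that spread was the SD of the 2 libraries, each library alone lay within it by construction. Those values could not have moved and show nothing about stability. Coding transcripts alone, the ratio without mt-Atp8, library-scaled counts and the TMM and pseudocount ratios of single genes were chosen after seeing the data. No paired analysis was possible because there is 1 group. With 2 libraries, the SD itself is poorly known, and levels under 1 TPM rest on few counts.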
